A study of Homo sapiens with 4 samples.

Results

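The protein subunits of the mitochondrial respiratory chain, with ATP synthase counted as complex V, were compared between wild-type and C/EBPβ enh-/- cells labelled HepG2, keeping genes of the mitochondrial genome apart from nuclear genes. Members were the protein-coding genes whose symbols name such a subunit. In the mitochondrial genome these are the MT-ND, MT-CO, MT-CYB and MT-ATP genes. In the nucleus they are the numbered NDUFA, NDUFB, NDUFC, NDUFS and NDUFV genes, SDHA to SDHD, CYC1, the UQCR genes, the subunits of the COX4 to COX8 series, and the ATP5F1, ATP5M and ATP5P genes. The rule found 98 of 57768 genes, 13 of them mitochondrial and 85 nuclear. RNA-seq had been run on WT cells (2 libraries) and on C/EBPβ enh-/- cells (2 libraries), from which CRISPR/Cas9 had removed both copies of an enhancer of the transcription factor C/EBPβ (gene CEBPB). HepG2 is an established line from a human liver tumour. The sources used here do not say whether the edited cells were a single clone, nor that libraries of a genotype came from separate cultures, so p-values measure only the spread between these samples, which may be technical.

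Complexes I to IV carry electrons from NADH and succinate to oxygen and build a proton gradient across the inner mitochondrial membrane, which ATP synthase uses to make ATP. The mitochondrial genome encodes the hydrophobic heart of complexes I, III, IV and V, whereas complex II is made from nuclear genes alone, so most of the chain needs products of both genomes. Hepatocytes rely on it for energy-demanding work such as gluconeogenesis and urea synthesis.

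Values are FPKM, fragment levels already divided by transcript length and library size, and are given for library 1 and then library 2 of a genotype. Library totals were 545795 and 536884 FPKM for WT against 614111 and 484073 for enh-/-. The 5 highest genes held 22.3% and 18.8% of that sum in WT and 35.1% and 27.4% in enh-/-. Depth read from the spacing of low values was about 39.5 and 44.5 (in units of 1e6 fragments) in WT and 22.0 and 48.4 in enh-/-. Only 47.4% to 52.1% of those low values lay within 0.1 of a whole fragment, so the depths are approximate. Library 1 of enh-/- was thus the shallowest and the most dominated by a few genes, and group medians that move strongly with it are also given without it. The labels call these RNA-seq libraries of total RNA, whereas their extraction text describes antibody isolation of histone-bound DNA from nuclei. The paper that reported the data names a kit or Trizol for RNA extraction, under a heading shared with qRT-PCR. How the RNA of these libraries was prepared is therefore uncertain, and its effect on the FPKM was not tested.

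CEBPB, the gene of the deleted enhancer, stood at 30.6 and 19.2 FPKM in WT and at 12.4 and 11.8 in enh-/-. Both enh-/- values lay below both WT values, with a log2 fold change of −0.94 (SE 0.27) that did not pass the test (limma, Benjamini-Hochberg adjusted p = 0.125). Fold changes are enh-/- over WT on the log2(FPKM + 1) scale, which understates differences of low genes, and the threshold was an adjusted p of 0.05.

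The HepG2 label was checked against marker genes. Of 20 hepatocyte and HepG2 markers, 19 were below 1 FPKM in all 4 libraries and 2 were at 0 throughout. ALB (albumin), a defining gene of hepatocytes, did not exceed 0.0553 FPKM in any library. The summed level of the 20 genes was 2.72 and 2.67 FPKM in WT and 2.35 and 2.06 in enh-/-, most of it from FOXA1 at 2.09 and 1.74 in WT and 1.34 and 1.23 in enh-/-. Defining liver markers were therefore absent or near 0, which goes against the label, and the cells are called "labelled HepG2". Fibroblast markers were present in part: 3 of 7 stayed below 1 FPKM in all libraries, and COL3A1, a fibrillar collagen, was highest at 33.3 and 31.9 FPKM in WT and 45.8 and 55.7 in enh-/-. Of the 3 tested, COL3A1 lay higher without overlap (log2 fold change 0.62), PDGFRB, a growth factor receptor, lay lower at 4.15 and 5.59 FPKM in WT and 1.52 and 2.27 in enh-/- (−1.02), and COL1A1 overlapped (−0.098). The 7 genes summed to 54.2 and 50.2 FPKM in WT and 57.6 and 73.3 in enh-/-. All 5 matched endothelial markers and all 6 leukocyte markers were below 1 FPKM in every library, with sums of at most 0.303 and 1.25 FPKM. Among 6 muscle markers 4 were below 1 FPKM throughout, and ACTC1 (cardiac actin) was highest at 19.7 and 14.1 FPKM in WT and 2.74 and 24.8 in enh-/-, while TNNT2 (cardiac troponin T) lay lower without overlap at 1.03 and 2.93 against 0.116 and 0.151. The part of these markers in the results was not tested, and in bulk RNA fewer cells of a type and less RNA per cell cannot be told apart.

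Across all 12491 genes with a mean of at least 1 FPKM, 151 were lower (1.21%) and 31 higher (0.248%) in enh-/- past the adjusted threshold of limma. At an unadjusted p under 0.05 these counts were 2114 (16.9%) and 482 (3.86%). Both enh-/- libraries lay below both WT libraries for 4682 genes (37.5%) and above them for 1886 (15.1%). Over these genes the log2 fold change had a median of −0.14, with quartiles of −0.47 and 0.16, and 62.6% of genes were below 0. Rescaling the libraries to the same total over nuclear protein-coding genes moved that median to 0.055, and centring each library on its median of tested genes moved it to 0.034. Medians of gene groups are therefore read beside this all-gene median, and for most groups the distance from it is given.

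No subunit gene passed the adjusted threshold of limma with Benjamini-Hochberg adjustment. Of the 13 mitochondrial genes, all of them tested, it called 0 lower and 0 higher, with 1 lower (MT-CO2) and 1 higher (MT-ND2) at an unadjusted p under 0.05. Of the 77 nuclear genes tested it called 0 lower and 0 higher, with 22 lower and 1 higher (NDUFV2) at an unadjusted p under 0.05, beside 16.9% and 3.86% of all genes. The 8 genes left untested for low values were ATP5MGL, COX4I2, COX6A2, COX6B2, COX7A1, COX7B2, COX8C and UQCRHL, none of which exceeded 0.242 FPKM in a library.

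Subunits of complex IV, cytochrome c oxidase, were the most abundant mRNAs of the mitochondrial genome. MT-CO1, which holds the oxygen-reducing centre, had 382 and 437 FPKM in WT and 260 and 389 in enh-/-. MT-CO2, which receives electrons from cytochrome c, had 195 and 249 FPKM in WT and 102 and 155 in enh-/-. MT-CO3 had 465 and 481 FPKM in WT and 186 and 427 in enh-/-. The genotypes did not overlap for MT-CO2 and MT-CO3 and overlapped for MT-CO1, and enh-/- library 1 was the lowest of the 4 for each of the 3 genes. MT-CO2 had the most negative log2 fold change of the mitochondrial genes at −0.80 (SE 0.27; limma, Benjamini-Hochberg adjusted p = 0.168), with a mean of 222 ± 38.3 FPKM in WT and 129 ± 37.6 in enh-/- (SD, n = 2 each). MT-CO3 followed at −0.75 (SE 0.38; limma, Benjamini-Hochberg adjusted p = 0.312) and MT-CO1 at −0.36. The median of the 3 genes was −0.75, and it stayed negative under each rescaling, at −0.76, −0.52 and −0.57. Without enh-/- library 1 it was −0.15, which is 0.047 above the median of all tested genes in the same fit, so the position of this median below other genes rests on that library. MT-CO2 alone was at −0.50 in that fit, beside −0.19 for all tested genes.

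**Figure D1:**
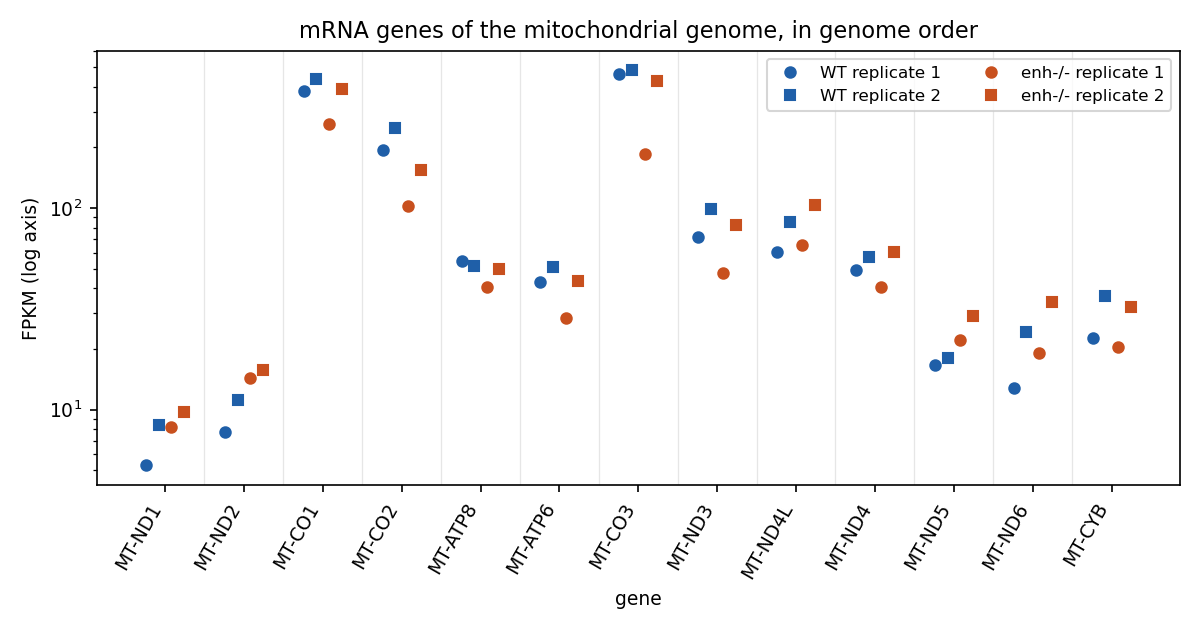
FPKM of the 13 mRNA genes of the mitochondrial genome on a log axis, in genome order, with 1 point per library (2 WT, 2 enh-/-). MT-CO2, MT-CO3 and MT-ATP8 lie lower in enh-/- without overlap and MT-ND2 and MT-ND5 higher, while enh-/- replicate 1 is the lowest library for MT-CO1, MT-CO2 and MT-CO3.

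The 7 mitochondrial subunits of complex I, the membrane arm of NADH dehydrogenase, were less abundant. MT-ND2 had 7.78 and 11.1 FPKM in WT and 14.3 and 15.6 in enh-/-. MT-ND5, at the far end of the proton-pumping arm, had 16.6 and 18.1 FPKM in WT and 22.2 and 29.0 in enh-/-. Both genes were higher in both enh-/- libraries than in either WT library. Their log2 fold changes were 0.63 for MT-ND2 (SE 0.24; limma, Benjamini-Hochberg adjusted p = 0.213) and 0.52 for MT-ND5 (SE 0.23; limma, Benjamini-Hochberg adjusted p = 0.259). MT-ND1, next to the quinone site, had 5.29 and 8.36 FPKM in WT and 8.15 and 9.78 in enh-/-. MT-ND6, the only mRNA on the light strand, had 12.9 and 24.4 FPKM in WT and 19.1 and 34.1 in enh-/-. MT-ND3 had 71.8 and 98.5 FPKM in WT and 47.7 and 82.3 in enh-/-. The genotypes overlapped for these 3 genes and also for MT-ND4 (49.2 and 57.4 against 40.4 and 60.7 FPKM) and MT-ND4L (60.4 and 85.6 against 65.5 and 103 FPKM). The median log2 fold change of the 7 genes was 0.37, 0.51 above that of all tested genes, and it was above 0 in each rescaling (0.37, 0.57 and 0.55) and on leaving out each library (0.066 to 0.59, or 0.20 to 0.73 relative to all tested genes). Whether strand entered the authors' estimates is not given in the sources used here, and without strand, reads of MT-ND6 and of transcripts running opposite to it cannot be told apart.

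MT-CYB, the mitochondrial subunit of complex III, had 22.7 and 36.5 FPKM in WT and 20.5 and 32.1 in enh-/-. In ATP synthase, MT-ATP6, the channel subunit beside the rotor, had 43.1 and 50.9 FPKM in WT and 28.4 and 43.7 in enh-/-. MT-ATP8 had 54.8 and 51.6 FPKM in WT and 40.3 and 49.8 in enh-/-. The genotypes overlapped for MT-CYB and MT-ATP6, and MT-ATP8 lay lower in both enh-/- libraries by a margin that was small beside the gap between those libraries. The median of both ATP genes was −0.32, or −0.18 relative to all tested genes, and without enh-/- library 1 it was −0.095, or 0.099 relative to them, and without enh-/- library 2 −0.55, or −0.44 relative to them. Under nuclear protein-coding rescaling and centring the median of both ATP genes was −0.099 and −0.15. Over all 13 genes, 3 lay lower without overlap (23.1%, beside 37.5% of all genes) and 2 higher (15.4%, beside 15.1%). Without WT library 1 or enh-/- library 2, 7 and 8 lay lower (beside 49.3% and 47.2% of all genes), without WT library 2 or enh-/- library 1, 5 and 6 lay higher (beside 26.3% and 21.7%), and 1 lay lower under each rescaling. The median log2 fold change of the 13 was −0.16, or −0.020 relative to all tested genes, and its sign turned to 0.060 and 0.015 under nuclear protein-coding rescaling and centring and to 0.0071 and 0.15 without WT library 2 or enh-/- library 1.

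Summed over the 13 genes, mitochondrial mRNA came to 1387 and 1610 FPKM in WT and 855 and 1432 in enh-/-. That is 0.254% and 0.30% of all FPKM in WT and 0.139% and 0.296% in enh-/-, or 0.367% and 0.406% against 0.248% and 0.452% of protein-coding FPKM. The 2 enh-/- libraries thus lay on either side of WT by the second measure, and a two-sided exact permutation test of 2 against 2 libraries cannot go below p = 0.33. Nuclear subunits held 2.91% and 3.12% of protein-coding FPKM in WT and 2.79% and 2.97% in enh-/-, which overlap. Of all FPKM they held 2.02% and 2.30% in WT and 1.57% and 1.95% in enh-/-, and their sums were 11006 and 12373 FPKM against 9624 and 9421, and by these measures both enh-/- libraries lay below WT. The ratio of mitochondrial to nuclear subunit FPKM was 0.126 and 0.130 in WT and 0.0888 and 0.152 in enh-/-, so the enh-/- libraries lay on either side of both WT libraries. Both mitochondrial ribosomal RNA genes together had 1.41 and 9.22 FPKM in WT and 2.52 and 1.56 in enh-/-. How far RNA preparation and read assignment set the listed mitochondrial levels was not tested.

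The makeup of the mitochondrial mRNA pool separated the genotypes where its size did not. MT-CO genes made up 75.2% and 72.5% of the mitochondrial sum in WT and 64.1% and 67.8% in enh-/-. MT-ND genes made up 16.1% and 18.8% in WT and 25.4% and 23.4% in enh-/-. MT-ATP genes (7.06% and 6.36% against 8.04% and 6.53%) and MT-CYB (1.64% and 2.26% against 2.40% and 2.24%) overlapped. MT-CO2 lay outside the WT range at 11.9% and 10.8% of the sum in enh-/- against 14.1% and 15.5% in WT, and MT-CO3 had 21.7% and 29.8% against 33.5% and 29.9%, a margin set by library 2 of both genotypes. MT-CO1 overlapped, with 30.5% and 27.2% in enh-/- against 27.6% and 27.1% in WT. Of the ND genes, 6 had larger shares in both enh-/- libraries, all but MT-ND3. The ratio of mean shares on the log2 scale was highest for MT-ND2 (1.14), MT-ND5 (0.99), MT-ND6 (0.92) and MT-ND1 (0.86), and it was 0.62 for MT-ND4L and 0.33 for MT-ND4. Shares of a sum add to 100, so a lower share of MT-CO2 and MT-CO3 raises the others and these values are not independent. No test was run on them, and they were chosen after the FPKM values had been seen.

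**Figure D2:**
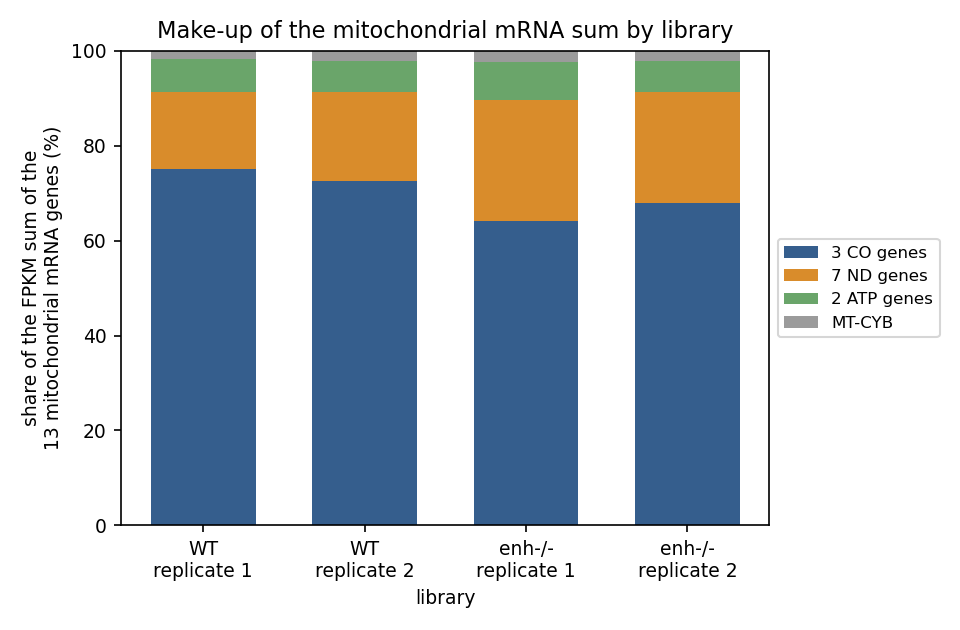
Share (%) of the summed FPKM of the 13 mitochondrial mRNA genes held by the 3 CO genes, the 7 ND genes, the 2 ATP genes and MT-CYB, with 1 stacked bar per library (2 WT, 2 enh-/-). The CO share is 75.2% and 72.5% in WT and 64.1% and 67.8% in enh-/-, and the ND share is 16.1% and 18.8% against 25.4% and 23.4%.

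Mitochondrial genes lie close together and 3 neighbouring pairs of the mRNA genes share bases, which limits how reads can be assigned between them. MT-ATP8 and MT-ATP6 overlap by 46 bases (chrM:8527-8572, plus strand, GRCh37), MT-ND4L and MT-ND4 by 7 bases (chrM:10760-10766), and MT-ATP6 and MT-CO3 by 1 base. The first 2 overlaps are shown 5′ to 3′ with 20 bases on either side and the shared part in capitals, which opens with the start codon of the second gene and closes with the stop codon of the first.
MT-ATP8/MT-ATP6: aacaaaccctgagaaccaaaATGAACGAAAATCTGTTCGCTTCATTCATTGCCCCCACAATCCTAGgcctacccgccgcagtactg
MT-ND4L/MT-ND4: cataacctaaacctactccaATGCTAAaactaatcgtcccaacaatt

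Copies of mitochondrial DNA in the nuclear genome can also share reads with the genes. Of 13 genes, 4 had a nuclear pseudogene with at least 98% identity over at least 50% of their length, all within chromosome 1: MT-ND2 (MTND2P28, 98.4%), MT-CO1 (MTCO1P12, 98.6%), MT-CO3 (MTCO3P12, 98.2%) and MT-ATP6 (MTATP6P1, 98.5%). Just below that identity cutoff, MT-CO2 (MTCO2P12, 97.95%) and MT-ATP8 (MTATP8P1, 97.6%) had full-length copies, also on chromosome 1. MTCO2P12 did not exceed 0.0448 FPKM and MTATP8P1 was listed at 0. Values of all these genes are uncertain to the extent that reads were split with the copies. MTCO1P12 had 10.3 and 12.9 FPKM in WT and 7.79 and 12.0 in enh-/-, MTCO3P12 had 3.82 and 3.28 against 1.10 and 3.60, and MTND2P28 and MTATP6P1 were listed at 0. In all, 32 of 390 mitochondrial-like pseudogenes were above 0 in at least 1 library, with a sum of 15.4 and 18.3 FPKM in WT and 9.52 and 17.9 in enh-/-. The ribosomal RNA genes were near the low end, MT-RNR1 with 0.469 and 6.05 FPKM in WT and 0.690 and 0.359 in enh-/-, and MT-RNR2 with 0.946 and 3.16 against 1.83 and 1.20. All 22 mitochondrial tRNA genes were listed at 0 in all 4 libraries.

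Nuclear subunits lay lower in enh-/- more often than tested genes as a whole. Both enh-/- libraries were below both WT libraries for 47 of 77 genes (61.0%, beside 37.5% of all genes) and above them for 6 (7.79%, beside 15.1%), and 24 overlapped. The median log2 fold change was −0.31, or −0.17 relative to all tested genes, with 57 genes below 0 and a range from −1.09 to 0.90. It stayed negative under each rescaling (−0.32, −0.089 and −0.14) and on leaving out each library (−0.41 to −0.18), and its distance from all tested genes was −0.039 without WT library 2 and −0.064 without enh-/- library 1. After nuclear protein-coding rescaling 28 genes lay lower (36.4%, beside 23.8% of all genes) and 20 higher (26.0%, beside 29.6%). After centring 33 lay lower (42.9%, beside 25.2%) and 15 higher (19.5%, beside 28.1%), so the split of lower and higher genes depends on the scaling. Without WT library 2 or enh-/- library 2 the higher genes numbered 17 and 16 (22.1% and 20.8%, beside 26.3% and 33.2% of all genes).

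Over all complexes the core subunits, a fixed list of subunits with bacterial counterparts, stood lower than the remaining nuclear subunits, here called supernumerary. The core list is not limited to catalytic parts and includes SDHC, SDHD and ATP5MC1 to ATP5MC3. Of 22 nuclear core genes, 18 lay lower without overlap (81.8%, beside 37.5% of all genes) and 1 higher (NDUFV2; 4.55%, beside 15.1%), with a median of −0.62, or −0.48 relative to all tested genes. Of 55 supernumerary genes tested, 29 lay lower (52.7%, beside 37.5% of all genes) and 5 higher (9.09%, beside 15.1%), with a median of −0.23, or −0.093 relative to all tested genes. The core median was −0.40 and −0.45 and the supernumerary median −0.0072 and −0.058 under nuclear protein-coding rescaling and centring. Without WT library 2 the supernumerary median was −0.13, and its distance from all tested genes ranged from −0.14 to 0.014 on leaving out each library. Among complexes with both classes in the nucleus, the core median was the lower one in complexes I (−0.40 against −0.11) and V (−0.72 against −0.41) and the higher one in complex III, at −0.33 for 2 core genes against −0.53 for 7 supernumerary genes. In complex V the supernumerary median was −0.27 without WT library 2, or −0.13 relative to all tested genes, beside −0.72 for the core. After nuclear protein-coding rescaling these medians were −0.19 and −0.50. Listed transcripts were longer in the core, at a median of 896.5 bases against 632.5 for the supernumerary genes. The difference between both classes, and the part of length in it, was not tested.

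**Figure D3:**
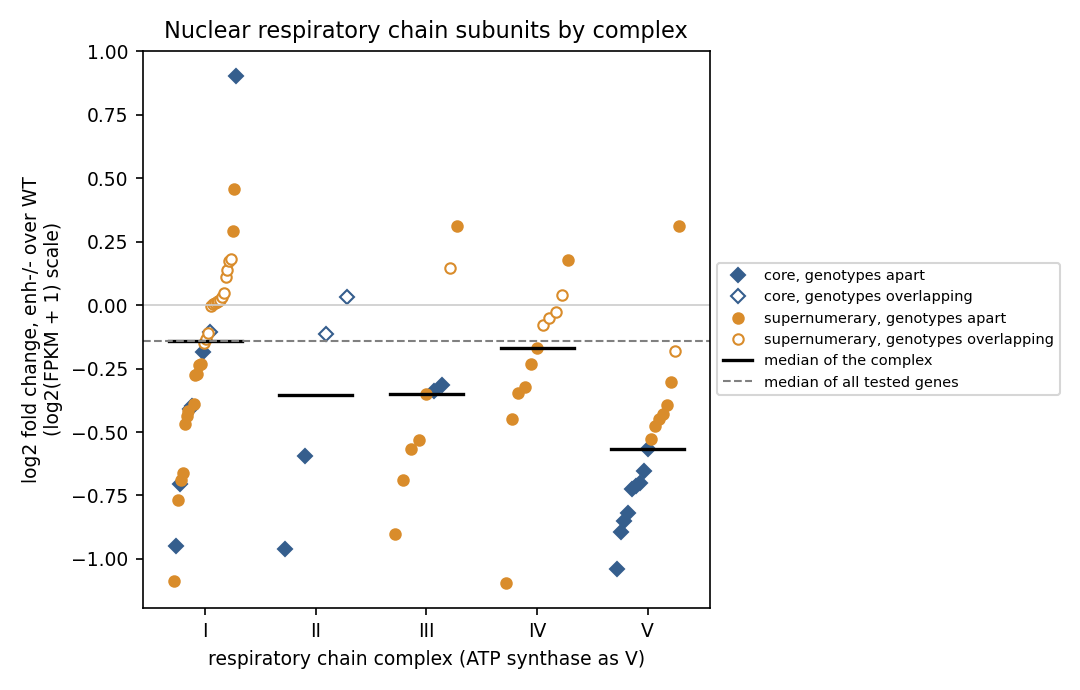
log2 fold change (enh-/- over WT, log2(FPKM + 1) scale) of the 77 tested nuclear subunit genes by complex, with core subunits as diamonds and supernumerary subunits as circles, filled where the genotypes do not overlap. Black bars are medians of each complex (−0.14, −0.35, −0.35, −0.17 and −0.57 for I to V) and the dashed line is the median of all tested genes (−0.14); the medians of I and IV are above 0 after nuclear protein-coding rescaling and centring.

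Complex I, which takes electrons from NADH, had 36 nuclear genes, all tested. Both enh-/- libraries lay below WT for 17 (47.2%, beside 37.5% of all genes) and above WT for 3 (8.33%, beside 15.1%). The overall median was −0.14, the same as that of all tested genes to 2 decimals, with 0.080 and 0.033 under nuclear protein-coding rescaling and centring and −0.26 and −0.092 without WT library 1 or 2. NDUFA10, a supernumerary subunit of the membrane arm, had 52.0 and 53.1 FPKM in WT and 19.9 and 29.4 in enh-/-. NDUFS1, which carries iron-sulfur clusters in the peripheral arm, had 87.1 and 67.4 FPKM in WT and 38.1 and 40.3 in enh-/-. Both were lower in enh-/- without overlap, at −1.09 for NDUFA10 (SE 0.25; limma, Benjamini-Hochberg adjusted p = 0.0870) and −0.95 for NDUFS1 (SE 0.23; limma, Benjamini-Hochberg adjusted p = 0.0903). NDUFV2, another iron-sulfur subunit of the NADH-oxidising module, went the other way with 120 and 109 FPKM in WT and 260 and 177 in enh-/- (log2 fold change 0.90, SE 0.25; limma, Benjamini-Hochberg adjusted p = 0.119). NDUFB11, an X-linked supernumerary subunit, had 83.5 and 80.5 FPKM in WT and 130 and 97.9 in enh-/-. NDUFV2 was the only core nuclear subunit of any complex whose enh-/- values both exceeded both WT values, while NDUFV1, its partner in the same module, had 103 and 105 FPKM in WT and 71.2 and 86.7 in enh-/-. NDUFS5, the most abundant nuclear gene of the complex, had 220 and 356 FPKM in WT and 274 and 294 in enh-/-, so that the WT libraries enclosed both enh-/- values. Over the 7 nuclear core genes of the complex the median was −0.40, or −0.26 relative to all tested genes, and without enh-/- library 1 it was −0.24, or −0.042 relative to them, and without enh-/- library 2 −0.54, or −0.44 relative to them. Over the 29 supernumerary genes it was −0.11, with 0.11 and 0.064 under nuclear protein-coding rescaling and centring and −0.24, −0.030 and −0.046 without WT library 1, WT library 2 or enh-/- library 2.

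Complex II, succinate dehydrogenase, belongs to both the chain and the citric acid cycle, and its 4 genes are all nuclear. SDHA, the flavoprotein that oxidises succinate, had 181 and 230 FPKM in WT and 90.2 and 121 in enh-/-. SDHB, the iron-sulfur subunit, had 91.5 and 100.1 FPKM in WT and 60.01 and 66.2 in enh-/-. These soluble catalytic subunits lay lower in enh-/- without overlap, with log2 fold changes of −0.96 for SDHA (SE 0.25; limma, Benjamini-Hochberg adjusted p = 0.106) and −0.60 for SDHB (SE 0.21; limma, Benjamini-Hochberg adjusted p = 0.176). The membrane anchors overlapped between genotypes, SDHC with 7.30 and 7.35 FPKM in WT and 8.45 and 6.65 in enh-/-, and SDHD with 38.1 and 48.8 against 43.6 and 36.3. Whether catalytic and anchor subunits differ from each other in this respect was not tested.

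Complex III, the cytochrome bc1 complex, passes electrons from ubiquinol to cytochrome c. Of its 9 tested nuclear genes, 7 lay lower without overlap (77.8%, beside 37.5% of all genes) and 1 higher (11.1%, beside 15.1%). Their median was −0.35, or −0.21 relative to all tested genes. It was −0.13 and −0.17 under nuclear protein-coding rescaling and centring, and its distance from all tested genes ranged from −0.33 to −0.10 on leaving out each library. UQCRC2, which with UQCRC1 forms the large matrix-facing part, had 102 and 102 FPKM in WT and 45.6 and 64.3 in enh-/-. UQCRC1 had 166 and 179 FPKM in WT and 110 and 104 in enh-/-. Both were lower in each enh-/- library than in either WT library, at −0.90 for UQCRC2 (SE 0.24; limma, Benjamini-Hochberg adjusted p = 0.112) and −0.69 for UQCRC1 (SE 0.20; limma, Benjamini-Hochberg adjusted p = 0.132). UQCRH, the hinge protein and the most abundant of the group, had 365 and 421 FPKM in WT and 263 and 267 in enh-/-. The redox subunits UQCRFS1 (63.3 and 77.5 against 58.3 and 52.1 FPKM) and CYC1 (179 and 197 against 139 and 163) were lower by a smaller margin, at −0.34 and −0.31. UQCRB, at the quinone-binding side, was higher in enh-/- without overlap, with 192 and 183 FPKM in WT and 219 and 249 in enh-/- (0.31, SE 0.21). UQCRH and its near-copy UQCRHL share most of their sequence, and UQCRHL did not exceed 0.181 FPKM.

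Complex IV had 11 tested nuclear genes, of which 6 lay lower without overlap (54.5%, beside 37.5% of all genes) and 1 higher (9.09%, beside 15.1%). The median was −0.17, or −0.031 relative to all tested genes, and it turned to 0.055 and 0.0035 under nuclear protein-coding rescaling and centring and was −0.10 without enh-/- library 2. Its distance from all tested genes was −0.10 without WT library 1 and turned to 0.025 without WT library 2. COX5B, a matrix-facing subunit, had 185 and 178 FPKM in WT and 88.0 and 81.1 in enh-/-. Its log2 fold change of −1.09 (SE 0.20) was the most negative of all 90 tested members and had the lowest adjusted p (limma, Benjamini-Hochberg adjusted p = 0.0581), and the gap between genotypes was much wider than that within either. NDUFA4, once assigned to complex I and placed here in complex IV, had 54.4 and 57.0 FPKM in WT and 45.5 and 36.1 in enh-/-. COX6C was the gene that lay higher, with 235 and 237 FPKM in WT and 288 and 247 in enh-/- (0.18, SE 0.21). The most abundant gene, COX6A1, had 413 and 363 FPKM in WT and 340 and 272 in enh-/-.

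Several positions of complex IV exist as ubiquitous and tissue-restricted isoforms, and only the ubiquitous forms exceeded 0.242 FPKM. COX4I1, the ubiquitous form of subunit 4, had 326 and 347 FPKM in WT and 313 and 285 in enh-/-, whereas COX4I2, the form of lung and of low oxygen, did not exceed 0.0060. COX6A1 far exceeded COX6A2, the heart and muscle form, which was listed at 0 in all libraries. A listed 0 need not mean no expression, since all 22 mitochondrial tRNA genes were also listed at 0. COX7A2 had 276 and 313 FPKM in WT and 320 and 251 in enh-/-, against at most 0.189 for its muscle form COX7A1. Values of the restricted forms were thus at or near 0 in both genotypes, and likewise for COX6B2 (at most 0.234 FPKM), COX7B2 (at most 0.0014) and COX8C (at most 0.242). Their counterparts overlapped between genotypes: COX6B1 with 120 and 206 FPKM in WT and 163 and 160 in enh-/-, COX7B with 86.2 and 103 against 90.7 and 94.6, and COX8A with 276 and 336 against 309 and 269.

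Complex V, ATP synthase, had the lowest median log2 fold change as fitted among nuclear genes of the 5 complexes, whereas relative to the median of each gene's chromosome complex III stood at −0.36 and complex V at −0.34. Of 17 tested genes, 15 lay lower without overlap (88.2%, beside 37.5% of all genes) and 1 higher (5.88%, beside 15.1%). In limma 10 had an unadjusted p under 0.05, all lower (58.8%, beside 16.9%), and 0 passed the adjusted threshold. The median was −0.57, or −0.43 relative to all tested genes, and it was −0.34 and −0.39 under nuclear protein-coding rescaling and centring and −0.64 to −0.52 on leaving out each library. All 9 core genes lay lower without overlap, with a median of −0.72, or −0.58 relative to all tested genes. ATP5F1C, the central stalk subunit gamma, had 127 and 112 FPKM in WT and 55.4 and 59.7 in enh-/-. ATP5F1B, the catalytic subunit beta and the most abundant nuclear member, had 631 and 615 FPKM in WT and 371 and 388 in enh-/-. In both cases the genotypes were far apart and the libraries of a genotype close together, at −1.04 for ATP5F1C (SE 0.21; limma, Benjamini-Hochberg adjusted p = 0.0682) and −0.71 for ATP5F1B (SE 0.19; limma, Benjamini-Hochberg adjusted p = 0.115). ATP5F1A, subunit alpha of the same head, had 428 and 442 FPKM in WT and 284 and 302 in enh-/-, and ATP5PO, which joins head and stator, had 192 and 164 against 91.7 and 109.

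Subunit c of the rotor ring is encoded by 3 nuclear genes whose mature proteins are identical. ATP5MC1 had 127 and 233 FPKM in WT and 75.8 and 111 in enh-/-. ATP5MC2 had 290 and 301 FPKM in WT and 155 and 227 in enh-/-. ATP5MC3 had 110 and 140 FPKM in WT and 72.6 and 77.2 in enh-/-. All 3 lay lower in enh-/- without overlap, at −0.90, −0.65 and −0.72, and ATP5MC2 was the most abundant in each library. ATP5F1E, the small subunit epsilon, was the exception of the complex, with 60.6 and 63.7 FPKM in WT and 75.8 and 79.0 in enh-/- (0.31, SE 0.20).

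**Figure D4:**
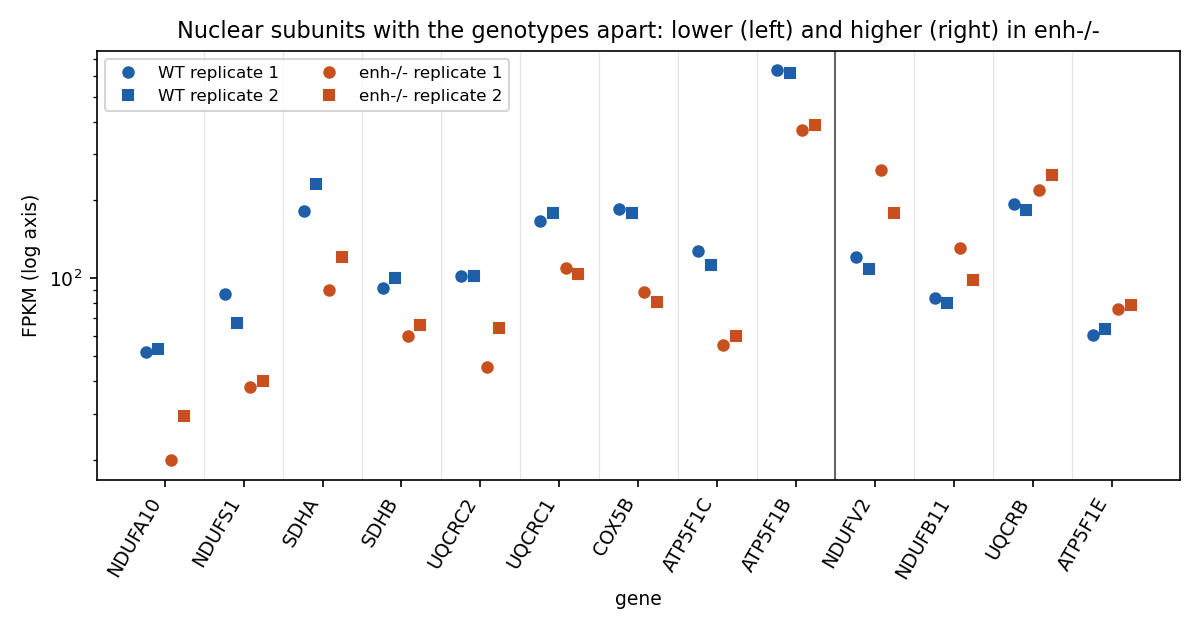
FPKM on a log axis of 13 nuclear subunit genes whose genotypes do not overlap, with 1 point per library (2 WT, 2 enh-/-). The 9 genes on the left are lower in enh-/- (ATP5F1B from 631 and 615 to 371 and 388) and the 4 on the right higher (NDUFV2 from 120 and 109 to 260 and 177).

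Promoters of subunit genes are known for sites of NRF1, of the ETS factor GABP and of YY1, so these motifs were searched on both strands in RefSeq promoter windows from 250 bases before to 50 after the start (GRCh38.p14). An entry was found for 63 of the 77 tested nuclear members. The letters GCGCATGC (NRF1) were present in 22.2% of them, CCGGAAG (GABP) in 33.3% and AAGATGGCG (YY1) in 14.3%, against 3.68%, 12.2% and 2.14% of 27305 genes with an entry. That background was not limited to tested genes, so it includes genes with low values here, and a share over tested genes alone was not computed. Among the 39 members that lay lower in enh-/- without overlap the shares were 17.9%, 33.3% and 17.9%, and among the other 24 they were 29.2%, 33.3% and 8.33%. A match describes letters only, and no match says only that these letters are not in the window. Windows are shown 5′ to 3′ for the 3 members with the lowest adjusted p and for NDUFV2, the core gene that lay higher, with motif matches in capitals. They lie at chr2:97645812-97646111 (COX5B, plus strand), chr10:7787927-7788226 (ATP5F1C, plus strand), chr2:240025293-240025592 (NDUFA10, minus strand) and chr18:9102449-9102748 (NDUFV2, plus strand).
COX5B: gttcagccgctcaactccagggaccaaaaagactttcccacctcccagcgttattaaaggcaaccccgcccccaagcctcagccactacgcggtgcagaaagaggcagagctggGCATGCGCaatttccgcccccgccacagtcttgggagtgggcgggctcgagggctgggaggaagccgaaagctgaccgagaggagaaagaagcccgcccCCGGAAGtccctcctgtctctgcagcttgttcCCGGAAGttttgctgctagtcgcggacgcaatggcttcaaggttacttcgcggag
ATP5F1C: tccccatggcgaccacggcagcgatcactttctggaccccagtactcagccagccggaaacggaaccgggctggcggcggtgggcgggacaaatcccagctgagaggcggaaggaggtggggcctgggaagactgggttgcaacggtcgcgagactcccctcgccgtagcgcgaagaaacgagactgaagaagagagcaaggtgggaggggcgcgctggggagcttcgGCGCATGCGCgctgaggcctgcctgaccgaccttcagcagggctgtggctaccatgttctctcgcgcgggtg
NDUFA10: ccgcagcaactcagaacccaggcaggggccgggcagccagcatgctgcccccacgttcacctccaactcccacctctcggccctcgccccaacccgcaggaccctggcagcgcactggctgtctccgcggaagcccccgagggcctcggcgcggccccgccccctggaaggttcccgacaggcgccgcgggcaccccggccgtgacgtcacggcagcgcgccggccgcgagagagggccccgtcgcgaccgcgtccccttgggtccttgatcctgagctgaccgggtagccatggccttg
NDUFV2: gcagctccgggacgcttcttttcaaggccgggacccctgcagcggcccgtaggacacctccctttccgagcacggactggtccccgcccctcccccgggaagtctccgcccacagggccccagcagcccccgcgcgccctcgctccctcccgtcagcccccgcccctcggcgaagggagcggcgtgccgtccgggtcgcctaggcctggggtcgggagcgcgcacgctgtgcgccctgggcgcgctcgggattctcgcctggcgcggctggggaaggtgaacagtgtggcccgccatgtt

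In COX5B the capitals mark 1 NRF1 match on the opposite strand, starting 136 bases before the start, and 2 GABP matches. In ATP5F1C they mark overlapping NRF1 matches on both strands, and the windows of NDUFA10 and NDUFV2 hold no match.

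Position, length and gene copies were compared with the fold changes. Chromosomes differed in their median over all tested genes, from −0.50 on chromosome 13 to 0.21 on chromosome 8. Chromosome 2, where 60.6% of 795 tested genes lay lower without overlap and the median was −0.44, holds NDUFS1, NDUFB3, NDUFA10, COX5B and ATP5MC3, and the median of these 5 was −0.95. Relative to their chromosomes, COX5B stood at −0.66, NDUFA10 at −0.65, NDUFS1 at −0.51, ATP5MC3 at −0.29 and NDUFB3 at 0.020. UQCRB and COX6C, which were higher in enh-/-, lie on chromosome 8, where 41.0% of tested genes were higher without overlap, and relative to that chromosome they stood at 0.10 and −0.030. With the median of its own chromosome taken from each gene, the median of the nuclear members was −0.17. Across the 77 nuclear members the log2 fold change had a Pearson correlation of −0.20 (Spearman −0.25) with log2 transcript length, against −0.00045 across 12198 tested genes; genes are not independent replicates, and no test was made. Length was the median over a gene's annotated transcripts of its own type. For some members it fell below the canonical coding length, as for UQCRC2 (586 against 1359 bases), so it measures mRNA length only roughly. By this measure the 39 shorter members had a median of −0.18 and the 38 longer ones −0.45, or −0.040 and −0.31 relative to all tested genes. The former was 0.046 after nuclear protein-coding rescaling and −0.27 and −0.099 without WT library 1 or 2. The latter was −0.23 and −0.27 under nuclear protein-coding rescaling and centring. Many subunit genes have processed pseudogenes that can take up their reads. The 49 tested members with a pseudogene named after them had a median of −0.35 and the 28 without had −0.23, or −0.19 and −0.15 without WT library 2 and −0.12 and −0.0078 after nuclear protein-coding rescaling. The part of position, length or pseudogenes in the differences between genotypes was not tested.

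Genes that build, express or feed the chain were examined in further lists, each described by counts and its median beside all tested genes, of which 16.9% were lower at an unadjusted p under 0.05, 37.5% lower and 15.1% higher without overlap, at a median of −0.14. Of 49 tested assembly factors, 0 passed the adjusted threshold of limma in either direction, 10 had an unadjusted p under 0.05, all lower (20.4%), and 23 lay lower (46.9%) and 7 higher (14.3%) without overlap. Their median was −0.18, or −0.045 relative to all tested genes, and turned to 0.033 under nuclear protein-coding rescaling. The distance from all tested genes ranged from −0.17 to −0.028 on leaving out each library. COA8, needed for complex IV, had 20.1 and 16.4 FPKM in WT and 8.48 and 8.91 in enh-/-, and NDUFAF8, an assembly factor of complex I, had 23.9 and 30.01 against 13.5 and 13.1. Higher values in enh-/- were found for UQCC3 of complex III (7.55 and 10.5 against 16.5 and 11.6 FPKM) and for TMEM70 of ATP synthase (13.9 and 11.3 against 21.4 and 16.0). Of 33 tested genes for mitochondrial DNA and RNA handling, 0 passed the adjusted threshold of limma, 6 had an unadjusted p under 0.05, all lower (18.2%), and 20 lay lower (60.6%) and 1 higher (3.03%) without overlap. Their median was −0.25, or −0.11 relative to all tested genes, with −0.046 and −0.072 under nuclear protein-coding rescaling and centring and −0.14 without enh-/- library 2, where the distance from all tested genes was −0.038. PNPT1, an RNA-degrading enzyme of mitochondria encoded on chromosome 2, had 24.7 and 22.2 FPKM in WT and 8.94 and 10.6 in enh-/- (−1.18, SE 0.22; limma, Benjamini-Hochberg adjusted p = 0.0573). MTPAP, the mitochondrial poly(A) polymerase, had 11.4 and 12.1 FPKM in WT and 6.69 and 5.55 in enh-/-, and FASTK, the gene that lay higher, had 23.9 and 27.8 against 30.2 and 39.3.

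Among 76 mitochondrial ribosomal protein genes, which serve translation of the 13 mitochondrial mRNAs, 2 passed the threshold, both lower, beside 1.21% of all genes. At an unadjusted p under 0.05 the count was 17, all lower (22.4%, beside 16.9%), and 42 lay lower (55.3%, beside 37.5%) and 3 higher (3.95%, beside 15.1%) without overlap. The median was −0.25, or −0.11 relative to all tested genes, with −0.035 and −0.078 under nuclear protein-coding rescaling and centring and −0.15 and −0.16 without WT library 2 or enh-/- library 2. The distance from all tested genes was −0.015 and −0.057 in the latter fits and −0.20 without WT library 1. MRPS5 fell from 51.3 and 49.5 FPKM in WT to 13.8 and 15.7 in enh-/- (−1.71, SE 0.21; limma, Benjamini-Hochberg adjusted p = 0.0208). MRPS9 fell from 30.4 and 26.5 FPKM to 11.5 and 8.80 (−1.41, SE 0.23; limma, Benjamini-Hochberg adjusted p = 0.0435). Both genes lie on chromosome 2, and both calls were lost on leaving out any of the 4 libraries, with adjusted p from limma (Benjamini-Hochberg) of 0.0892 to 0.205 for MRPS5 and 0.118 to 0.344 for MRPS9. MRPS9 was also not called under any of the 3 scalings, nor MRPS5 after rescaling to the same total over all genes. Neither gene was called with no filter on low values, where no gene passed the threshold.

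Of 9 tested regulators of respiratory gene transcription, 0 passed the adjusted threshold of limma and 1 had an unadjusted p under 0.05, lower (11.1%, beside 16.9% of all genes). Without overlap, 4 lay lower (44.4%, beside 37.5%) and 0 higher (beside 15.1%). Their median was −0.25, or −0.11 relative to all tested genes, with −0.053 and −0.078 under nuclear protein-coding rescaling and centring. The gene with that p was YY1, at 35.9 and 32.7 FPKM in WT and 15.9 and 19.5 in enh-/- (−0.92, SE 0.22; limma, Benjamini-Hochberg adjusted p = 0.0909), while GABPB2, a partner of GABPA, had 3.48 and 2.86 against 2.48 and 2.40. The 18 genes of pyruvate dehydrogenase and the citric acid cycle, which supply NADH and succinate, stood at a median of −0.56, or −0.42 relative to all tested genes, with −0.34 and −0.38 under nuclear protein-coding rescaling and centring. None passed the adjusted threshold of limma (0 lower, 0 higher), 11 had an unadjusted p under 0.05, all lower (61.1%, beside 16.9%), and 17 lay lower without overlap (94.4%, beside 37.5%). SUCLG2, of succinyl-CoA ligase, had 15.9 and 17.7 FPKM in WT and 8.20 and 6.99 in enh-/-, and IDH3G, of isocitrate dehydrogenase, had 32.0 and 37.0 against 14.8 and 19.1.

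Of 27 tested genes for protein import, the outer membrane and chaperones, 0 passed the adjusted threshold of limma, 6 had an unadjusted p under 0.05, all lower (22.2%, beside 16.9% of all genes), and 15 lay lower (55.6%, beside 37.5%) and 2 higher (7.41%, beside 15.1%) without overlap. Their median was −0.29, or −0.15 relative to all tested genes, with −0.066 and −0.12 under nuclear protein-coding rescaling and centring and −0.18 without enh-/- library 2. The distance from all tested genes was −0.087 without WT library 2 and −0.080 without enh-/- library 2. TOMM7 of the import pore had 128 and 137 FPKM in WT and 59.6 and 67.7 in enh-/-, and TIMM9, an intermembrane-space chaperone, had 34.4 and 19.2 against 12.5 and 14.0. TOMM6 (126 and 156 against 229 and 164 FPKM) and VDAC3, an outer membrane channel (53.9 and 66.4 against 84.4 and 67.6), were the genes that lay higher. Among 5 genes next to the rule, 0 passed the adjusted threshold of limma and 1 had an unadjusted p under 0.05, lower (20%, beside 16.9%). Without overlap, 3 lay lower (60%, beside 37.5%) and 1 higher (20%, beside 15.1%). Their median was −0.36, or −0.22 relative to all tested genes. It was −0.14 after nuclear protein-coding rescaling and −0.23, or −0.085 relative to all tested genes, without WT library 1. CYCS, cytochrome c itself, had 95.8 and 113 FPKM in WT and 69.8 and 67.7 in enh-/- (−0.59, SE 0.21; limma, Benjamini-Hochberg adjusted p = 0.182). COX7A2L, a supercomplex factor, had 74.0 and 60.1 FPKM against 48.6 and 47.2, and ATP5IF1, the inhibitor of ATP synthase, had 198 and 166 against 143 and 139. NDUFAB1, the acyl carrier protein of complex I, lay higher with 92.2 and 97.3 FPKM in WT and 131 and 109 in enh-/-, and NDUFA4L2 overlapped at 3.15 and 0.808 against 5.82 and 0.832.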

How the data were processed

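The RNA-seq libraries were 2 of WT and 2 of C/EBPβ enh-/- genotype. The authors deposited FPKM for each gene, and no read counts entered the tests. The submitters' processing notes name TopHat2 2.0.13, Cufflinks and hg19. Which mitochondrial sequence accompanied hg19, strand use and removal of ribosomal RNA are not given in the sources used here, and their effect was not tested. Of 57815 entries per library, 47 were dropped as chromosome Y copies of pseudoautosomal genes, and a symbol was found for 55535 of the other 57768. PECAM1, SCO2, FASTKD4 and TIMM23 had no match. Coordinates, lengths and sequence came from GRCh37 with GENCODE release 44 lifted to it, and promoters from RefSeq.

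Values were transformed as log2(FPKM + 1). Genes with a mean of at least 1 FPKM were fitted with limma 3.58.1 in R 4.3.3 (lmFit, eBayes with trend), two-sided, with Benjamini-Hochberg adjustment over all tested genes and a threshold of 0.05. Genotype was the only term, and the procedure was tested on simulated data. Tables and figures used Python 3.11.15 with numpy 2.4.6, pandas 2.3.3, scipy 1.17.1 and matplotlib 3.10.9, and pseudogenes were aligned with blastn. With n = 2 per genotype, the number of libraries limits the precision.

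Named genes were all 13 mitochondrial mRNA genes, MT-RNR1, MT-RNR2, CEBPB and SDHA to SDHD, and, in each complex, nuclear members past the threshold, the 2 highest and 2 lowest fold changes among members whose genotypes did not overlap, the most abundant member, and isoforms of a position. From each other list genes past the threshold were named, or otherwise the 2 highest and 2 lowest without overlap, and all 5 genes next to the rule. ALB, PDGFRB, COL1A1, TNNT2, NDUFB3, NDUFV1, UQCRFS1, CYC1, ATP5F1A and ATP5PO were named after their values were seen. Members and lists were chosen with earlier results of these data known. Alternatives were other filters, pseudocounts and scalings, protein-coding genes only, a length and GC correction, the replicate block and leaving out each library.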

Additional observations from a re-analysis of the deposited data

How the results depend on the processing

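With n = 2 per genotype the number of libraries limits every call, and the approximate depth of enh-/- library 1 was the lowest. Across 984 combinations of 66 named genes and an alternative, 924 kept direction and side of the threshold, 36 reversed, 8 newly passed it and 16 no longer did; where no cause is stated, it was not tested. Where a left-out library leaves 1 in a genotype, that library is assumed to vary like the other genotype.

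Of the 77 nuclear members, 3 passed the threshold when only protein-coding genes were fitted (3.90%, beside 4.19% lower of the 10909 genes in that fit), lower in enh-/-: COX5B (0.0282), ATP5F1C (0.0356) and NDUFA10 (0.0493; limma, Benjamini-Hochberg adjusted p). In every other limma fit 0 members passed. Counts of all tested genes past the threshold, 151 lower and 31 higher, were 0 and 0 with no filter on low values, 457 and 60 for protein-coding genes only, and 20 higher at a mean of at least 5 FPKM. Rescaling to all genes left 61 lower, nuclear protein-coding rescaling 57 and centring 68. Leaving out a library left 9 to 22 lower and 3 to 20 higher genes.

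The median of the mitochondrial members (−0.16) was 0.060 under nuclear protein-coding rescaling, 0.015 under centring, 0.27 as shares of the mitochondrial sum (chosen after seeing the data), and −0.39 to 0.15 on leaving out a library. That of the nuclear members (−0.31) was −0.089 and −0.14 under the same scalings, −0.23 for members without a named pseudogene, −0.17 relative to the chromosome (chosen after seeing the data), and −0.41 to −0.18 on leaving out a library. The median of all tested genes was 0.055 and 0.034 under the same scalings and −0.19 to −0.10 on leaving out a library. The mitochondrial share of FPKM, 0.277% in WT and 0.217% in enh-/-, was 0.387% and 0.350% of protein-coding FPKM, and 0.349% and 0.318% without the 5 highest nuclear genes of any library, where the enh-/- libraries at 0.220% and 0.417% lay on either side of WT.

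Direction reversed under nuclear protein-coding rescaling and centring for MT-CYB (0.060 and 0.015), MT-ND4 (0.12 and 0.073), SDHD (0.11 and 0.062), COX7A2 (0.17 and 0.12), COX4I1 (0.055 and 0.0035), COX7B (0.20 and 0.15) and COX8A (0.15 and 0.097). It reversed with the library left out for MT-CYB (−0.49 to 0.17), MT-ND4 (−0.39 to 0.19), MT-ND4L (−0.13 to 0.52), NDUFS5 (−0.32 to 0.37), SDHC (−0.12 to 0.18), SDHD (−0.29 to 0.063), COX7A2 (−0.23 to 0.12), COX6B1 (−0.35 to 0.43), COX7B (−0.16 to 0.10), COX8A (−0.22 to 0.064), NDUFA4L2 (−0.58 to 1.31), MT-RNR2 (−0.74 to 0.36) and MT-RNR1 (−2.22 to 0.045).

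Both genotypes carry the replicate numbers 1 and 2, and deviations of same-numbered libraries had a correlation of 0.0094 across genes. With 2 libraries per genotype, this value cannot show whether same-numbered libraries shared a culture or batch. Blocking on the replicate number called 93 lower and 31 higher genes, and the block together with the length and GC correction called 255 and 47, with 0 members among them.

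Counts of members without overlap under other scalings and left-out libraries were added after seeing the data. Mitochondrial members (3 lower, 2 higher) numbered 1 lower under each of the 3 scalings (7.69%, beside 23.8% to 36.2% of all genes) with 2 to 3 higher (15.4% to 23.1%, beside 16.4% to 29.6%), 3 to 8 lower and 2 to 6 higher on leaving out a library (beside 47.2% to 54.5% and 21.7% to 33.2%), and 2 lower and 6 higher as shares of the mitochondrial sum. Nuclear members (47 lower, 6 higher) numbered 28 lower and 20 higher under nuclear protein-coding rescaling (beside 23.8% and 29.6% of all genes), 33 lower and 15 higher under centring (beside 25.2% and 28.1%), and 47 to 59 lower (61.0% to 76.6%) and 7 to 17 higher (9.09% to 22.1%) on leaving out a library.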
